A study of Mus musculus with 8 samples.

Results

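The genes described here encode the nuclear subunits of respiratory complexes II, III, IV and V in brain of mice with a homozygous Pus1 mutation and of wild-type mice. They were taken by symbol from all probes of the array that are not controls: Sdha, Sdhb, Sdhc, Sdhd and Cyc1, and every gene whose symbol begins with Uqcr, Cox4i, Cox5, Cox6, Cox7, Cox8 or Atp5, tissue isoforms included. This gave 48 genes with 71 probes, out of 20887 named genes and 55681 probes. Complex II had 4 genes, complex III 9, complex IV 18 and complex V 17. The rule used no measured value. The rule also takes 14 pseudogene symbols that had no probe, and no protein-coding gene it takes lacked a probe.

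The series compared 4 mice labelled homozygous mutant for PUS1 with 4 labelled wild type, 2 females and 2 males in each group. All 8 were 14 to 16 weeks old and of the C57BL/6J strain after 5 generations of backcrossing, and the sources used here do not describe the allele further. RNA came from a frozen cross section through the brain, and 200 ng of each mouse's RNA was labelled with Cy3 or Cy5. Every array (Agilent, 2 colours, 4 arrays on 1 slide) compared a mutant with a wild-type mouse that matched it in sex and number, a pair below (pairs 1 and 2 female, 3 and 4 male). Cy5 marked the mutant in pairs 1 and 3, and Cy3 marked it in the other pairs.

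Electrons from succinate enter the respiratory chain through complex II (succinate dehydrogenase), pass to complex III (the cytochrome bc1 complex), and reach oxygen at complex IV (cytochrome c oxidase), while complex V (ATP synthase) makes ATP from the proton gradient. Complex II is encoded wholly in the nucleus. Complexes III, IV and V each combine nuclear subunits with subunits translated inside mitochondria, and several complex IV subunits have alternative isoforms for heart and muscle, lung or testis. The product of Pus1 modifies uridines to pseudouridine in tRNAs of the cytosol and of mitochondria, and neurons rely heavily on oxidative phosphorylation.

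Pus1 itself was lower in the mutant in all 4 pairs (log2 ratio -2.59 ± 0.38, SD, n = 4 pairs, limma adjusted p = 0.0364). The labels give the genotype and no direction for its RNA. With normexp offset 0, the scanner's ratio, the authors' deposited table or a sex term, and without pair 1 or pair 3, 0 probes on the array passed, Pus1 included. The place of its probe relative to the mutation is unknown here. The ratios over all tested probes spread most in pair 2 (SD 0.633, against 0.279, 0.395 and 0.329 in pairs 1, 3 and 4). Pair 2 also stood apart in some markers of brain cell types, described further on. Values called without a pair are plain means of the other 3 pairs. The fit without a pair differs from them, because with its dye term the lone pair of an orientation counts as much as both pairs of the other. The precision of every value is limited by the number of arrays. In RNA from a whole section, fewer cells of a type and less RNA per cell cannot be told apart.

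The subunit genes were among the brightest on the array. The normalized log2 intensity of a gene's brightest probe, called its level here, lay over the 90th percentile of all tested probes for 40 of the 47 genes tested, and the median percentile was 97.4. No spot of these genes was saturated or marked as an outlier. The 7 genes below that point were the tissue isoforms Cox4i2, Cox6a2, Cox6b2, Cox7a1, Cox7b2 and Cox8b, and Cox6b1, at the 12.3 to 87.8 percentile. Cox8c, the testis isoform of complex IV subunit 8, was not well above background in any of the 8 mice and was not tested. Another testis isoform, Cox7b2 of subunit 7b, was well above background in 3 mutant and 3 wild-type mice.

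Some motif letters, which the selection rule did not use, were more frequent in promoters of the subunit genes than in all promoters. RefSeq promoters (build GRCm38.p6, 250 bases before to 50 after the annotated start) were present in the table for 36 of the 48 genes, and each motif was searched on both strands. CCGGAAG, the core bound by ETS factors such as GABP, occurred in 13 of the 36 genes (36.1%), against 9.93% of 27025 genes with a promoter. GCGCATGCG, letters of the site of NRF1, a known regulator of respiratory genes, occurred in 6 (16.7%), against 1.95%. The ERR core CAAGGTCA occurred in 3 (8.33%, against 1.76%) and the GC box GGGCGG in 14 (38.9%, against 38.2%). TGATGNAA, letters of an ATF4-type site, occurred in 0 of 36 (4.51% of all genes). Of the tissue isoforms 4 had a promoter in the table, and 0 of these held the ETS, NRF1 or ERR letters. A match is a description of the letters only.

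The 120 bases just before the annotated start are shown for the broadly expressed isoforms Cox6a1 and Cox6b1 and the heart and muscle isoforms Cox7a1 and Cox8b. Cox7a1 and Cox8b were among the genes whose ratios differed most between pairs, while Cox6a1 and Cox6b1 were picked by no stated rule. The stretches shown do not stand for their classes. Of the broadly expressed isoforms of the same subunits as Cox7a1 and Cox8b, Cox7a2 held only the GC box letters and Cox8a held the ETS letters. Capitals mark CCGGAAG or its reverse complement; no other letters are marked. They lie at chr5:115348959-115349078 (minus strand), chr7:30626115-30626234 (minus), chr7:30184051-30184170 (plus) and chr7:140900447-140900566 (minus), in that order, and are written 5′ to 3′ on the strand of the gene.
Cox6a1: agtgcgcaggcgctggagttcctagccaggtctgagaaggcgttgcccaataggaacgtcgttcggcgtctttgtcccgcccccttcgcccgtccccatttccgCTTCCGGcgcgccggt
Cox6b1: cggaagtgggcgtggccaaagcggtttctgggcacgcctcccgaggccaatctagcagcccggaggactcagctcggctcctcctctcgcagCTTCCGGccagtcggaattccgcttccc
Cox7a1: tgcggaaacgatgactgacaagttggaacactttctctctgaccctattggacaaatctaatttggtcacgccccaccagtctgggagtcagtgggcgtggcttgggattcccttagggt
Cox8b: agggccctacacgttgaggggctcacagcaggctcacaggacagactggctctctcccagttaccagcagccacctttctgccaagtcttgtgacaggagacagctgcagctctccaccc
In Cox6a1 the capitals span positions -16 to -10 and in Cox6b1 -28 to -22, counted from the start with no position taken out.

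No subunit gene of complexes II to V passed the test between mutant and wild-type brain. Of 70 tested probes for these genes 0 had a limma adjusted p under 0.05, against 0.00901% of all 33300 probes tested (3 probes). At an unadjusted p under 0.05 there were 2 of the 70, both for Cox8a, against 6.05% of all probes. The log2 ratio had the same sign in all 4 pairs for 5 of 47 genes (10.6%), against 11.8% of all probes. The levels of the 4 mutant and 4 wild-type mice did not overlap for 0 of 47 genes, against 1.02% of all probes. Each of these shares was near or below its background.

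The mean log2 ratio was above 0 for 23 genes and below 0 for 24, with a median of -0.0020, against 0.0070 over 15283 genes tested at 1 probe each. The means ran from -0.44 (Cox8a) to 0.50 (Cox6a2). A mean beyond 0.25 in either direction was seen for these 2 genes only (4.26%), against 17.2% of all genes tested. The 95% interval of the mean lay within 1.5-fold in either direction for 43 of 47 genes and within 2-fold for 46. The 4 genes outside 1.5-fold were Cox8a, Cox7a1, Cox8b and Cox6a2, and Cox6a2 alone exceeded 2-fold. Over all genes the interval lay within 1.5-fold for 11725 of 15283. The limma fit holds a dye term, so its interval comes from the difference between pairs of like orientation and can be narrower than the spread over all 4 pairs.

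**Figure D1:**
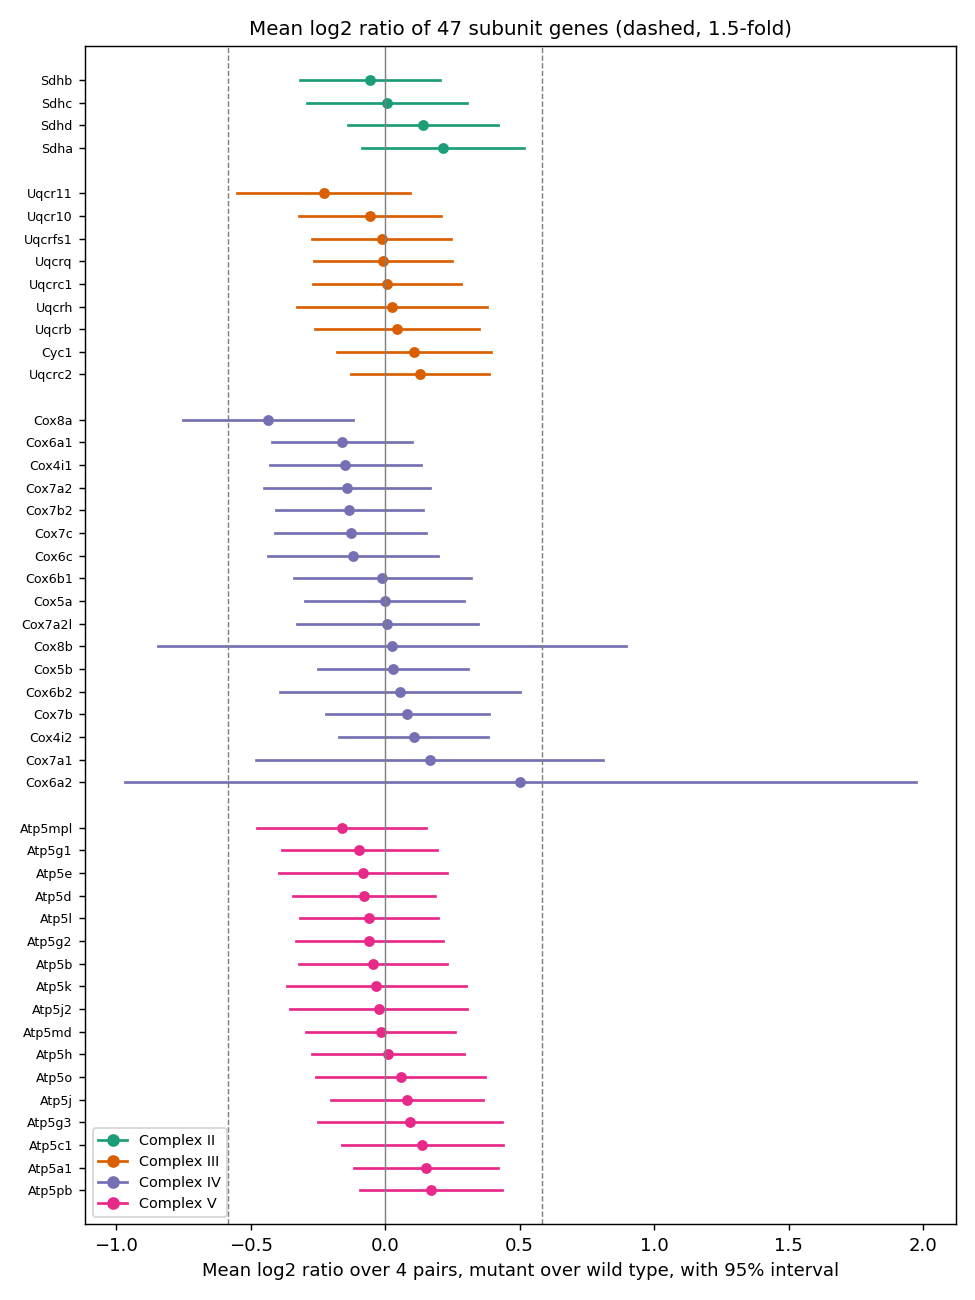
Mean log2 ratio of mutant over wild type (x axis) for each of the 47 tested subunit genes (y axis), ordered by mean within each complex. Points are means over 4 pairs, bars are limma 95% intervals, and dashed lines mark 1.5-fold in either direction; the intervals of 43 genes lie between the dashed lines, and the interval of Cox8a alone leaves out 0.

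The ratios moved more between pairs than their mean moved from 0. The median ratio over the 47 genes was -0.13 in pair 1, 0.21 in pair 2, 0.000029 in pair 3 and -0.080 in pair 4. The number of genes higher in the mutant was 14, 35, 24 and 19 in these pairs. Pair 2 was the highest in all 4 complexes. The median SD of a gene over the 4 pairs was 0.229, against 0.298 for all genes tested. Without pair 2 the median of the plain means was -0.0099 in complex II, 0.015 in III, -0.19 in IV and -0.054 in V. With all pairs these medians were 0.075, 0.0079, -0.0020 and -0.024. Without pair 4 the complex IV median was -0.021 and that of complex V 0.041, while the fitted values with the dye term were 0.082 and 0.090.

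**Figure D2:**
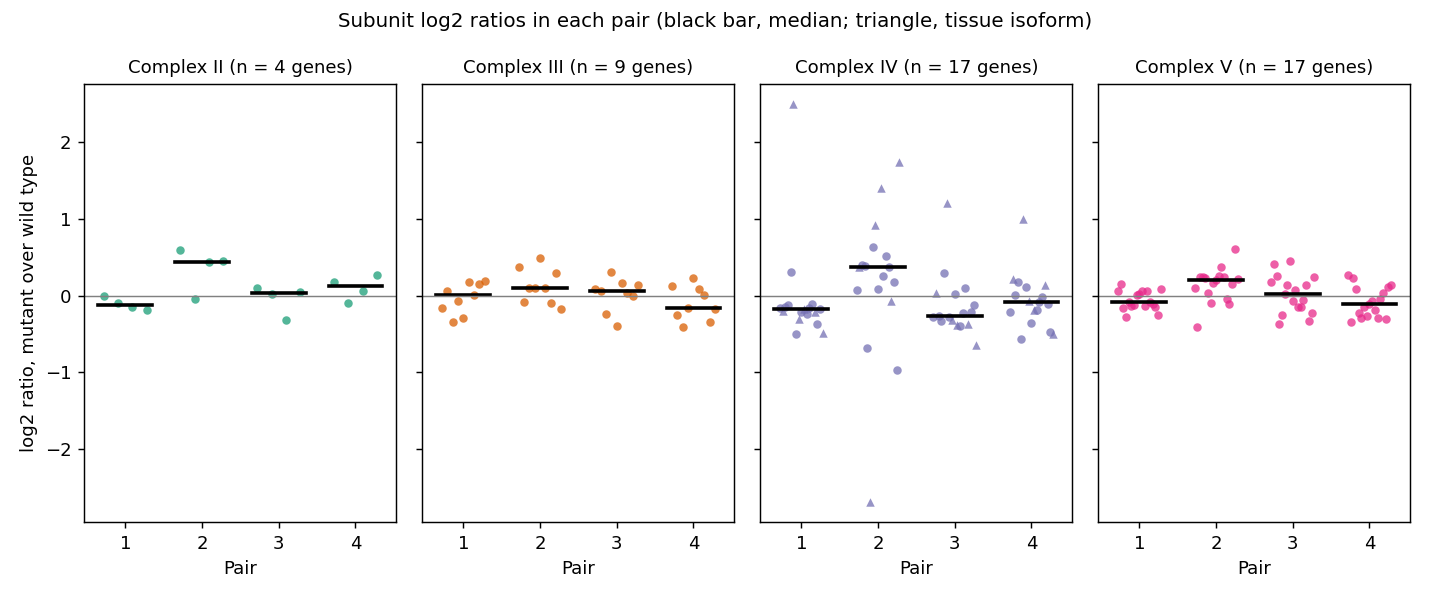
Log2 ratio of mutant over wild type (y axis) in each of the 4 pairs (x axis) for the subunit genes of complexes II, III, IV and V, 1 point a gene at its brightest probe. Black bars are medians and triangles are tissue isoforms. The medians of each complex lie on both sides of 0 over the pairs, and within a pair the points can be shifted to 1 side. In complex IV, 2 of 17 genes lie above 0 in pair 1 and 13 in pair 2. The farthest points are complex IV tissue isoforms in pair 2 and Cox6a2 at 2.50 in pair 1.

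In complex II, 3 of 4 genes had a mean above 0 and none passed the test. The median log2 ratio of the complex was 0.075, with -0.12, 0.44, 0.033 and 0.12 in pairs 1 to 4. Sdha, the catalytic flavoprotein, had the highest mean, 0.21 ± 0.27 (limma adjusted p = 0.839), from ratios of -0.012, 0.60, 0.093 and 0.18. Its level was 14.60, 14.94, 14.47 and 14.73 in mutant mice 1 to 4 and 14.61, 14.34, 14.38 and 14.55 in wild-type mice 1 to 4, so the groups overlapped and mutant mouse 2 was the highest of the 8. Without pair 2 the mean was 0.087.

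Sdhb, the iron-sulfur subunit and the brightest of the complex, had ratios of -0.099, -0.046, 0.020 and -0.094 at its brighter probe (mean -0.055 ± 0.055). Its other probe gave -0.39, 0.066, 0.034 and 0.30, a wider spread. The membrane anchors Sdhc and Sdhd had means of 0.0075 ± 0.33 and 0.14 ± 0.28. Both anchors were highest in pair 2, at 0.44 and 0.45, as Sdha was, while the brighter Sdhb probe was not. Without pair 2 the mean of Sdhc was -0.14 and that of Sdhd 0.038.

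In complex III, 5 of 9 genes had a mean above 0, and none passed. The median was 0.0079, with 0.0058, 0.093, 0.057 and -0.16 in pairs 1 to 4. Uqcrc2, core protein 2, was higher in the mutant in all 4 pairs by a small amount (0.18, 0.093, 0.16 and 0.084; mean 0.13 ± 0.05, limma adjusted p = 0.872). Its level was 14.94, 15.08, 15.00 and 15.00 in the mutant mice and 14.76, 14.98, 14.84 and 14.91 in wild type. The groups overlapped through wild-type mouse 2.

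Core protein 1, encoded by Uqcrc1, swung between pairs instead, at -0.29, 0.49, -0.39 and 0.23 (mean 0.0079 ± 0.42). Its probe had 1 spot on each array and that of Uqcrc2 had 10, so the precision of their ratios is not alike. Uqcr11, a small subunit, had the lowest mean of the complex, -0.23 ± 0.23 (adjusted p = 0.839), and was lower in 3 of 4 pairs (-0.35, 0.096, -0.24 and -0.42). Uqcrh, the hinge protein that contacts cytochrome c1 and the brightest of the complex, had 0.15, 0.29, 0.000029 and -0.35. The catalytic subunits Cyc1 (cytochrome c1) and Uqcrfs1 (the Rieske iron-sulfur protein) had means of 0.11 ± 0.22 and -0.013 ± 0.06. The small subunits Uqcr10, Uqcrb and Uqcrq lay between -0.057 and 0.043.

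Complex IV held both ends of the range. Of 17 tested genes 8 had a mean above 0 and none passed, and the median was -0.0020 with -0.18, 0.37, -0.26 and -0.080 in pairs 1 to 4. Cox8a, the broadly expressed (liver) isoform of the small subunit 8, had the lowest mean of all subunit genes and was lower in the mutant in all 4 pairs. Its ratios were -0.18, -0.97, -0.13 and -0.47, a mean of -0.44 ± 0.39 with a 95% interval of -0.75 to -0.12. It did not pass the test (limma unadjusted p = 0.0154, adjusted p = 0.766).

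The level of Cox8a was 16.89, 16.96, 17.28 and 17.29 in mutant mice 1 to 4 and 17.07, 17.93, 17.40 and 17.76 in wild-type mice 1 to 4. Wild-type mouse 1 lay below mutant mice 3 and 4, so the groups overlapped. The other Cox8a probe gave -0.27, -0.40, -0.36 and -0.15 (mean -0.30 ± 0.11, adjusted p = 0.811), with less spread between pairs than the brighter probe. Across every alternative processing the mean stayed below 0, from -0.59 to -0.26 (the plain mean without pair 2), and adjusted p ran from 0.0737 (without pair 4) to 1.00. Under median centring in place of loess, the other 4 genes with 1 sign in all pairs had means of 0.014 (Atp5a1), 0.016 (Uqcrc2), 0.073 (Atp5pb) and -0.18 (Atp5l). No other gene of the complex had the same sign in all 4 pairs at its brightest probe. The dimmest probe of Cox7c, at the 22.2 percentile, was lower in all 4 (-0.10, -0.10, -0.16 and -0.23), and the brighter Cox7c probes were not.

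Among the other subunits with broadly expressed isoforms, Cox6a1, the brightest subunit gene of all, was higher in the mutant in pairs 1 and 3 (0.31 and 0.30) and lower in pairs 2 and 4 (-0.68 and -0.56), a mean of -0.16 ± 0.54 (adjusted p = 0.852). Cox4i1, the general isoform of the regulatory subunit 4, was lower in 3 of 4 pairs (-0.17, 0.072, -0.28 and -0.22; mean -0.15 ± 0.15). Cox7a2, the liver isoform of subunit 7a, was also lower in 3 (-0.24, 0.25, -0.40 and -0.18; mean -0.14 ± 0.28). These 3 genes thus had means of like size from different patterns over the pairs.

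Cox6b1, the general isoform of subunit 6b, had -0.50, 0.63, -0.28 and 0.12 (mean -0.011 ± 0.50). Cox7b, the general isoform of subunit 7b, had -0.12, 0.37, 0.099 and -0.018 (mean 0.083 ± 0.21). Cox7a2l, which encodes a factor that joins complexes III and IV in supercomplexes, had -0.16, 0.51, -0.23 and -0.080 (mean 0.0089 ± 0.34). All of these were highest in pair 2, and without it their means were -0.22, -0.012 and -0.16. Of the subunits without an alternative isoform, Cox5a, Cox5b, Cox6c and Cox7c, the means lay between -0.13 and 0.029.

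The heart and muscle isoforms varied most between pairs, and not in 1 direction. Cox6a2, the heart and muscle isoform of subunit 6a, had log2 ratios of 2.50, -2.70, 1.21 and 1.00, the largest spread of all subunit genes (mean 0.50 ± 2.23, adjusted p = 0.913). Its level was 12.21, 9.40, 12.25 and 12.76 in mutant mice 1 to 4 and 9.71, 12.09, 11.05 and 11.76 in wild-type mice 1 to 4. Mutant mouse 2 and wild-type mouse 1 were the low mice, 1 in each genotype, and the groups overlapped. Without pair 2 the mean was 1.57, and without pair 4 it was 0.34. The fitted values with the dye term were 1.43 (adjusted p = 0.297) and -0.42, so without pair 4 the sign depends on that term.

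Cox7a1, the heart and muscle isoform of subunit 7a, ran the other way in pair 2, with -0.18, 1.41, -0.38 and -0.19 (mean 0.17 ± 0.83, adjusted p = 0.937). Its level was 11.22, 11.52, 10.98 and 10.19 in the mutant and 11.40, 10.11, 11.36 and 10.38 in wild type. Mice of pair 4 and wild-type mouse 2 were low. Without pair 2 the mean was -0.25.

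Cox8b, the heart and muscle isoform of subunit 8, had -0.49, 1.75, -0.65 and -0.50 (mean 0.026 ± 1.15, adjusted p = 0.994). Its level was 8.14, 9.75, 8.38 and 8.72 in the mutant and 8.63, 8.01, 9.03 and 9.22 in wild type, with mutant mouse 2 the highest and wild-type mouse 2 the lowest of the 8. Without pair 2 the mean was -0.55, and without pair 4 it was 0.20. The fitted values with the dye term were -0.53 (adjusted p = 0.379) and 0.59 (adjusted p = 0.0699). Cox7a1 and Cox8b were lower in the mutant in the same 3 pairs and higher in pair 2.

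The remaining isoforms were less variable. Cox6b2, the testis isoform of subunit 6b, had -0.30, 0.91, -0.31 and -0.071 (mean 0.056 ± 0.58), and without pair 2 its mean was -0.23. Cox4i2, the lung isoform of subunit 4, had -0.20, 0.37, 0.033 and 0.22 (mean 0.11 ± 0.25). Cox7b2 had -0.22, -0.076, -0.37 and 0.13 (mean -0.13 ± 0.21). Levels of different isoforms come from different probes and are not set against each other.

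**Figure D3:**
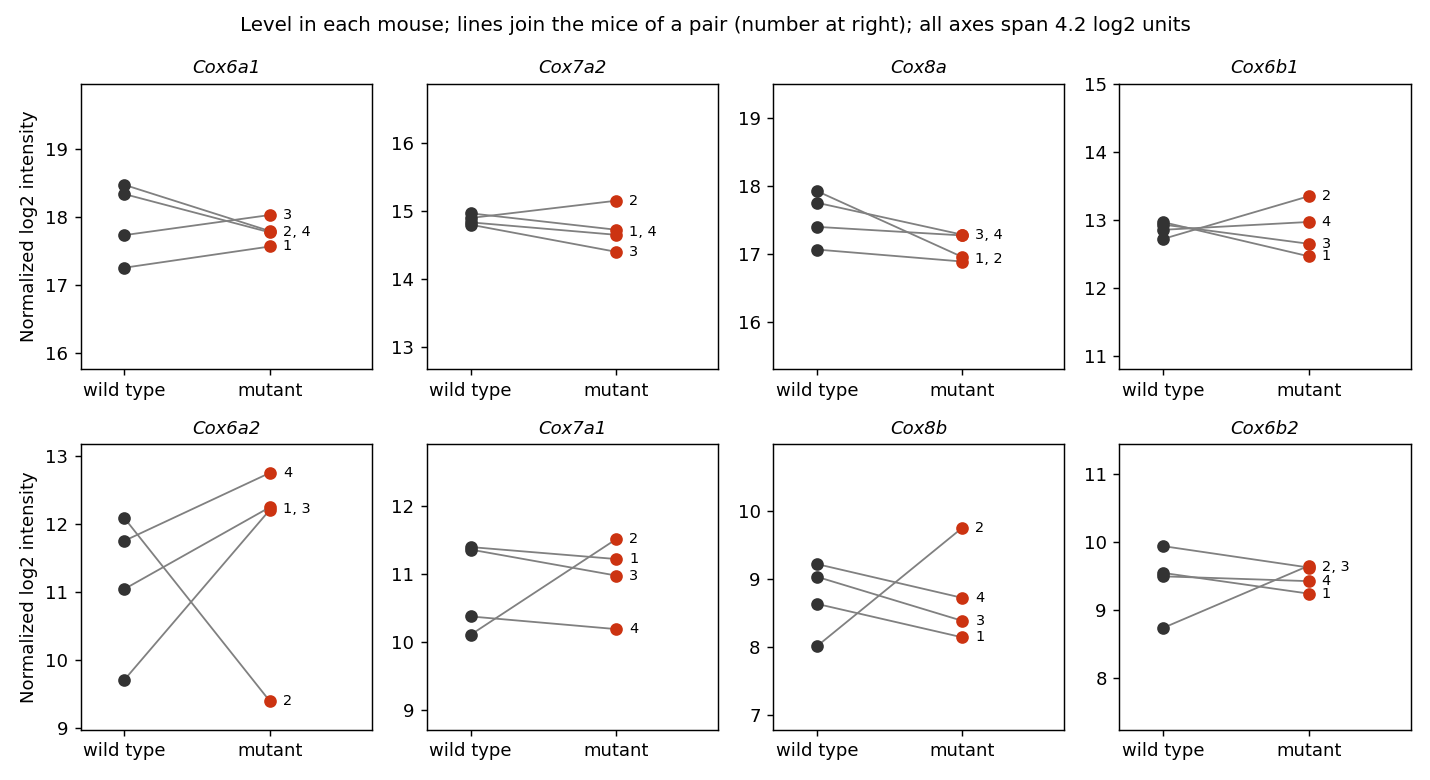
Level (normalized log2 intensity, y axis) in each mouse for broadly expressed isoforms of complex IV subunits (top) and the tissue isoform of the same subunit (bottom), with wild type at left and mutant at right of each panel (x axis). Lines join the mice of a pair, numbered at the mutant point; in pair 2 Cox6a2 goes from 12.09 in wild type to 9.40 in the mutant and Cox8b from 8.01 to 9.75, each against its direction in the other 3 pairs.

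In complex V, 7 of 17 genes had a mean above 0 and none passed, with a median of -0.024 and pair medians of -0.085, 0.21, 0.022 and -0.11. Every interval of the complex lay within 1.5-fold. In the catalytic F1 part, Atp5b, the beta subunit and the brightest gene of the complex, had 0.16, -0.41, 0.41 and -0.34 (mean -0.044 ± 0.39, adjusted p = 0.963). Atp5a1, the alpha subunit, was higher in the mutant in all 4 pairs (0.058, 0.10, 0.17 and 0.27; mean 0.15 ± 0.09, adjusted p = 0.862). The alpha and beta subunits, which alternate in the F1 ring, thus differed in pattern over the pairs.

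The level of Atp5a1 was 15.96, 16.32, 15.89 and 16.29 in the mutant and 15.91, 16.22, 15.71 and 16.02 in wild type, and the groups overlapped. The central stalk genes Atp5c1, Atp5d and Atp5e had means of 0.14 ± 0.20, -0.078 ± 0.29 and -0.082 ± 0.22.

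In the peripheral stalk, Atp5pb (subunit b) had the highest mean of the complex and was higher in all 4 pairs (0.087, 0.21, 0.25 and 0.13; mean 0.17 ± 0.07, adjusted p = 0.851). Its level was 14.12, 14.36, 14.15 and 14.08 in the mutant and 14.03, 14.15, 13.91 and 13.94 in wild type, and the groups overlapped only because wild-type mouse 2 reached the level of the lower mutant mice. Its other probe gave 0.092, 0.11, 0.10 and -0.024 (mean 0.071), so that probe was not higher in all 4 pairs. The stalk subunits Atp5h, Atp5j and Atp5o had means of 0.011, 0.080 and 0.059.

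The c ring, which turns with proton flow, is encoded by 3 genes for the same mature subunit. Atp5g1 had -0.13, 0.030, 0.022 and -0.30 (mean -0.095 ± 0.16), and Atp5g2 had -0.12, -0.10, 0.14 and -0.15 (mean -0.058 ± 0.13). Atp5g3 had 0.013, 0.17, 0.45 and -0.26 (mean 0.093 ± 0.30). None of the c-ring genes kept its sign in all 4 pairs.

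Of the membrane subunits, Atp5l (subunit g) was lower in the mutant in all 4 pairs by a small and even amount (-0.085, -0.051, -0.057 and -0.044; mean -0.059 ± 0.02, adjusted p = 0.943). Its level was 15.68, 15.63, 15.73 and 15.55 in the mutant and 15.77, 15.68, 15.79 and 15.59 in wild type, with the groups overlapping. Its 5 probes had means from -0.13 to -0.0054, all below 0. The sign in pair 3 was not alike: the other probes had -0.065, 0.064, 0.0099 and 0.21 there. Atp5mpl, a small membrane-associated subunit, had the lowest mean of the complex (-0.15, 0.15, -0.33 and -0.31; mean -0.16 ± 0.22, adjusted p = 0.871). Atp5j2, Atp5k and Atp5md lay between -0.033 and -0.016.

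Means of different probes of a gene lay close, but not beside the small size of the means. Of the 16 genes with more than 1 tested probe, the largest range between probes was 0.14, at Cox8a, and the next 0.13, at Atp5l. The median absolute mean of the 47 genes was 0.080. Probe means lay on both sides of 0 for Sdhb, Atp5j2, Cox7a2l, Atp5g2 and Atp5h. For Atp5c1 and Uqcrb, 1 dimmer probe each was higher in the mutant in all 4 pairs, and the brightest was not.

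No other listed gene of the respiratory chain passed at an adjusted p under 0.05. Of the assembly factors, 0 of 4 passed for complex II, 0 of 5 for complex III, 0 of 18 for complex IV and 0 of 4 for complex V with its inhibitor Atpif1. Cox18, a membrane insertase for a mitochondrially encoded subunit of complex IV, was at an unadjusted limma p of 0.0369 (0.26, 0.33, 0.35 and 0.21; mean 0.29 ± 0.06, adjusted p = 0.811). Of the 37 nuclear complex I genes 0 passed; their median was 0.035, with -0.096, 0.23, -0.050 and 0.037 in pairs 1 to 4, so pair 2 was again the highest.

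Cycs, the cytochrome c of somatic cells, had a mean of 0.054 ± 0.13. Hccs, the enzyme that attaches heme to it, had 0.87, -0.89, 1.86 and -0.93 (mean 0.23 ± 1.37), a sign that followed dye orientation. The level of its probe was at the 99.9 percentile, and saturated spots were counted for the subunit genes only. As probes were named here, none carried the symbol of a subunit encoded in mitochondrial DNA, so those subunits were not analysed.

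The ratios of many subunit genes divided the pairs by dye orientation, at a share near that of all genes. For 24 of 47 genes (51.1%) both ratios of pairs 1 and 3, with the mutant in Cy5, lay on 1 side of both ratios of pairs 2 and 4, against 52.3% of all genes tested. In 17 of these genes pairs 2 and 4 were the higher and in 7 pairs 1 and 3, against 3986 and 4009 of 15283 genes. The largest such differences were at Cox6a2 (mean 1.85 in pairs 1 and 3, -0.85 in pairs 2 and 4), Cox6a1 (0.30 and -0.62) and Cox6b1 (-0.39 and 0.37). Cox8a was at -0.15 in pairs 1 and 3 and at -0.72 in pairs 2 and 4. In these ratios the dye and any other difference between the sets of pairs cannot be told apart.

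Across the 41 genes that are not tissue isoforms, the ratios of pairs 1 and 3 correlated at r = 0.64, and those of pairs 2 and 4 at 0.62. Between pairs of unlike orientation r was between -0.42 and -0.089. Over all 47 genes r was 0.78 between pairs 1 and 3 and -0.29 between pairs 2 and 4. The other values over 47 genes were -0.79 (pairs 1 and 2), 0.49 (1 and 4), -0.72 (2 and 3) and 0.37 (3 and 4). With the tissue isoforms included, pairs 1 and 3 thus still had the highest r. Pairs 2 and 4 lay below pairs 1 and 4 and pairs 3 and 4, which are of unlike orientation. The part of Cox6a2, the gene with the largest spread, in this change was not tested. Over all probes of the array, pairs of like orientation had 0.34 (1 and 3) and 0.26 (2 and 4), and pairs of unlike orientation lay between -0.39 and 0.070. These correlations are across genes, which share an array and are not independent replicates.

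**Figure D4:**
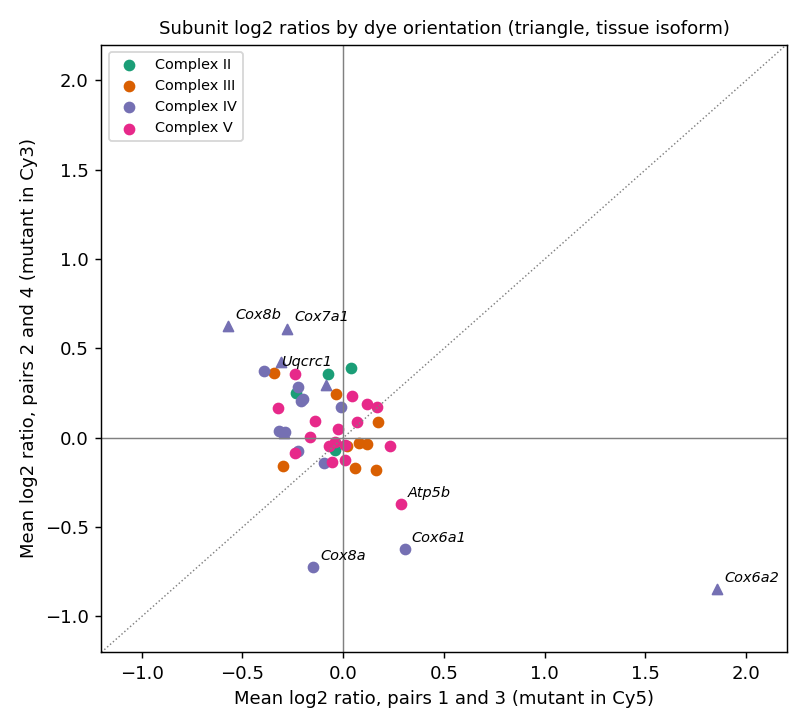
Mean log2 ratio of mutant over wild type in pairs 1 and 3 (x axis) against that in pairs 2 and 4 (y axis) for the 47 tested subunit genes, coloured by complex, with triangles for tissue isoforms. Genes at the dotted diagonal have equal means in both orientations; Cox6a2 at 1.85 and -0.85 lies farthest from it.

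Markers of brain regions and cell types differed between the mice of a pair. The excitatory neuron, myelin and ependymal lists differed most in pair 2, and the cerebellum and striatum lists in pair 4. The 12 excitatory neuron markers had a median log2 ratio of 0.25, -2.29, -0.17 and -0.19 in pairs 1 to 4, and their mean level ranged from 9.25 to 11.07 over mutant mice and from 8.85 to 12.05 over wild-type mice. The 11 myelin markers had medians of -0.23, 1.60, -0.51 and -0.28, with mean levels of 13.15 to 14.70 in the mutant and 13.28 to 14.07 in wild type. All 11 were higher in the mutant in pair 2, the pair in which 35 of 47 subunit genes were higher.

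The 13 cerebellum markers were higher in every pair by their median (0.42, 0.31, 0.72 and 1.74), and the median was lowest in pair 2. Their mean level was 12.90, 9.97, 13.36 and 11.36 in mutant mice 1 to 4 and 12.41, 9.44, 12.74 and 9.58 in wild-type mice 1 to 4. Both mice of pairs 1 and 3 were thus above both mice of pairs 2 and 4, the division that dye orientation also makes. The 9 striatum markers had medians of 1.03, -0.33, 0.12 and -1.28 and mean levels of 10.56 to 11.998 in the mutant and 10.64 to 11.93 in wild type. The 10 ependymal and choroid plexus markers had medians of -0.45, 0.81, -0.74 and -0.48, with mean levels of 8.91 to 10.03 and 8.74 to 10.57. The astrocyte, microglia, endothelial and red blood cell lists had pair medians between -0.48 and 0.52. The part of these differences in the subunit ratios was not tested.

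Beside the heart and muscle isoforms, 5 of 10 skeletal muscle and brown fat markers were tested, and Ckm, Myh1, Mylpf, Tnnt3 and Ucp1 did not pass the filter on dim probes. The tested markers had median ratios of 0.042, 0.017, -0.072 and -0.096 and mean levels of 8.98 to 9.34 in the mutant and 8.82 to 9.74 in wild type. In pair 2 these were -2.15 for Acta1 (skeletal muscle actin), -1.48 for Myh4, 0.24 for Actn3, 0.28 for Cidea and 0.017 for Ppargc1a. The 10 inhibitory neuron markers had medians between -0.070 and 0.00021 in the 4 pairs, with mean levels of 12.40 to 12.83 in the mutant and 12.60 to 12.92 in wild type. In pair 2 they spread with an SD of 1.60 between genes, from -3.51 for Vip to 1.15 for Slc32a1. The part of either in the isoform ratios was not tested.

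**Figure D5:**
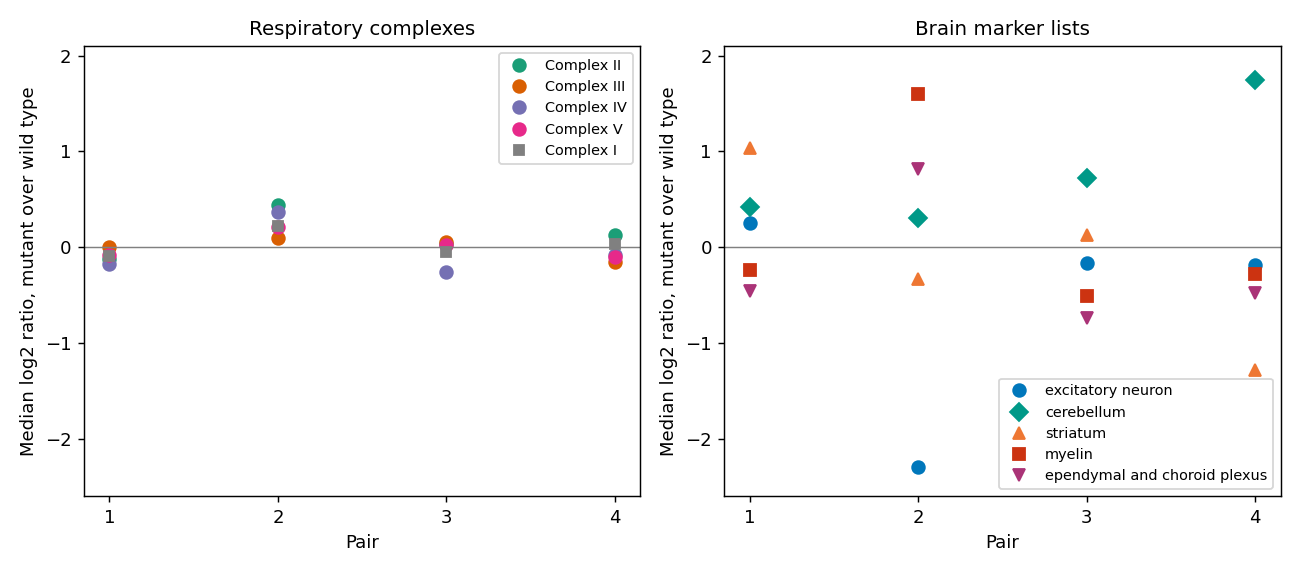
Median log2 ratio of mutant over wild type (y axis, same scale) in each pair (x axis) for complexes I to V (left) and for lists of brain markers (right). The complex medians lie between -0.26 and 0.44, while the marker medians reach -2.29 (excitatory neurons, pair 2) and 1.74 (cerebellum, pair 4).

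The genotype difference was also compared between the sexes, each with 2 pairs. Of 33300 probes 0 passed for the difference between male and female pairs (limma adjusted p under 0.05; 925 at an unadjusted p under 0.05), and this fit had 1 residual degree of freedom. Among the subunit genes the smallest adjusted p was 0.993. Both female pairs had 1 sign and both male pairs the other for 3 of 47 genes, Atp5h, Atp5k and Atp5md, which are named here after their values were seen; over all probes this was so for 7.6%.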

How the data were processed

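Spot values came from Agilent Feature Extraction 10.7.3.1 (submitters' processing notes, file headers). The deposited spot and local background intensity values are median pixel brightness without correction, per the file headers, and the processed intensity is background-subtracted and dye-normalized (linear and lowess). The deposited log10 ratio is processed Cy5 over processed Cy3, and the deposited spot marks are 0 or 1, per the file headers. The authors' deposited log2 table states no scale; each column followed quantile-normalized log2 processed signal minus the probe's median (r of at least 0.99967 over 27624 probes), with column medians from -0.0497 to 0.0363. Its scale, centring and direction rest on that comparison.

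Spots were corrected with normexp (offset 50), normalized by loess within each array, and averaged per probe, with limma 3.58.1 under R 4.3.3 (files were read by the package data.table, version 1.17.8). Levels were taken after Aquantile normalization between arrays. Probes well above background in at least 3 of 4 samples of a genotype were kept (33308), of which 33300 had a value on every array. Ratios were fitted with a dye term (residual degrees of freedom 2, prior 3.65), with Benjamini-Hochberg adjustment over all tested probes. The array is the pair, so the pair is a block by construction; deviations from the genotype means correlated at 0.791, 0.314, 0.494 and 0.740 within pairs 1 to 4, where both mice share an array. Mutant 2 correlated more with wild-type 4 (0.427) than with its own partner, and mutant 4 reached 0.690 with wild-type 2. Plain means without a pair were added after seeing the data. Probes were named by accession through RefSeq (GRCm38.p6): 27509 had a symbol and 28172 none. The file headers name the mm9 build, so only promoter coordinates from RefSeq are printed.

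Each gene is given by its tested probe with the highest mean level. Named in full are, for each complex, the brightest gene and those with the highest and lowest mean, genes with 1 sign in all 4 pairs, every isoform family and the 3 genes with the largest SD. The members, lists and tests were chosen with earlier results of these data known. Alternatives changed background correction, normalization, filter, dye term, sex term, variance trend, block, probe choice, value table and replicates.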

Additional observations from a re-analysis of the deposited data

Results flagged for a closer look

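A value far from the other 3 of its group was seen in 6 of 82 groups screened (the ratios, the mutant levels and the wild-type levels of 26 named genes, and the 4 complex medians). Some of these genes were named for their mean or spread in these same values, and the groups of a gene are not independent. The rate of about 1 in 20 that chance gives for independent groups therefore does not apply here. In pair 2, Cox8b had a log2 ratio of 1.75 (the other pairs -0.65 to -0.49) and Cox7a1 one of 1.41 (the others -0.38 to -0.18). Mutant mouse 2 had a Cox6a2 level of 9.40 (the other mutant mice 12.21 to 12.76) and a Cox7a2l level of 16.2 (the others 15.56 to 15.67). Mutant mouse 4 had a Cox7b2 level of 7.63 (the others 7.12 to 7.14), a probe near background. Atp5g2, a c-ring gene, had a ratio of 0.136 in pair 3 (the others -0.148 to -0.102).

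The female and male pairs lay on opposite sides of 0 for 3 of 47 genes, all in complex V, against 7.6% of all probes. None of them passed the limma test of the difference (adjusted p = 0.993 for each). Male minus female was -0.202 for Atp5h (0.11 in females and -0.090 in males), -0.371 for Atp5k (0.15 and -0.22) and 0.198 for Atp5md (-0.12 and 0.083).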

How the results depend on the processing

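The number of subunit probes past the test was 0 under every alternative, including both fits of separate channels (0 with no replicate block and 0 with the replicate block as random, correlation 0.614), while the number over all probes ran from 0 to 13 and reached 934 without replicate 4. The count of subunit genes differing between the sexes was 0 without the dye term and with the scanner's ratio. Median centring in place of loess moved the complex III median to -0.11, and put those of complexes II, IV and V at -0.016, -0.12 and -0.15, with the median of all probes at -0.036. Leaving out 1 pair each gave fitted medians, with the dye term, of 0.013 to 0.14 for complex II, -0.019 to 0.070 for III, -0.14 to 0.082 for IV and -0.064 to 0.090 for V. The medians of plain means of the other 3 pairs, chosen after seeing the data, ran from -0.0099 to 0.16, -0.027 to 0.050, -0.19 to 0.080 and -0.054 to 0.041. Of the 26 named genes, between 0 and 8 changed sign under an alternative, most in the plain means without replicate 2, and the lowest adjusted p in any was 0.0699 (Cox8b without replicate 4). The number of arrays limits what can be seen: the median 95% interval of a subunit gene reached 0.289 log2 units to either side of its mean. Normexp with an offset draws ratios of dim spots toward 0, which bears on the dim isoforms.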
